A study of Drosophila melanogaster with 90 samples.

Results

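The maltase genes of Drosophila melanogaster are described here across whole females of 5 inbred lines, kept as virgins or mated with males of each line. Members were all rows of the count table whose symbol begins with Mal-A or Mal-B, which gave 10 of 14514 gene rows. All 10 had enough reads to be tested. Mal-A1 to Mal-A8 are direct neighbours on chromosome arm 2R, and Mal-B1 and Mal-B2 are direct neighbours on 2L. No sequences of these genes are shown.

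Maltases are alpha-glucosidases. In the fly gut they act after amylase: amylase cuts starch into short chains and maltose, and maltases release glucose from maltose and related sugars, which transporters then carry into the enterocytes. The enzymes are best known from the midgut, and transcripts of several digestive carbohydrases in flies are known to fall when the diet is rich in glucose. Which sugar each of the 10 enzymes prefers is not annotated in the sources used here, so the genes are described by cluster and level.

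Mated females were mated once, to a male of the Beijing, Ithaca, Netherlands, Tasmania or Zimbabwe line, and frozen 5 to 6 h after mating began. Virgin females of the same 5 lines and ages were frozen in parallel. All are inbred Global Diversity Lines (Zimbabwe 184, Tasmania 01, Netherlands 01, Ithaca 16 and Beijing 04), so that 1 line stands for each place. Per the design text the Zimbabwe line proved to be a recent migrant to Africa. All flies were aged 3 to 5 days on yeast and glucose medium. Each library pooled 5 to 10 females, replicates came from separate bottles, and their matings were set up at the same time. Of 90 labelled libraries, 89 were analysed, 74 from mated and 15 from virgin females. Each cross and each virgin group has 3 libraries, except Ithaca females with Zimbabwe males, which have 2. Crosses are named with the female line first.

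Total counts ran from 4407704 to 38799730 per library. In 6 mated libraries the summed testis and sperm transcripts were 12.3 to 1282 CPM (counts scaled to a common library size), against at most 3.20 CPM in the other 83. Genes nearly silent in one line and not in another gave 6 libraries with more than 10% of RNA like that of another line. Among them are Netherlands x Ithaca replicate 2, with 51.4% Ithaca-like RNA, and Tasmania virgin replicate 3, with 21.8% Zimbabwe-like RNA. In all 10 libraries stood apart in one way or both. The fits without them left out 9, since Ithaca x Zimbabwe replicate 3, with 19.0% Zimbabwe-like RNA, was kept as the last library of its cross. Libraries under the 10% limit were not left out for such RNA and reached up to 9.24%. Beijing virgin replicates 1 and 2, with 9.02% and 6.61% Netherlands-like RNA, were thus kept. The 6 midgut markers (mex1, nub, GATAe, Myo31DF, cad and lab) were above 0 in every library. Whether their reads came from the midgut alone was not tested, so their sum is not a measure of gut content. Because whole flies were sequenced, fewer cells of a type and less RNA per cell cannot be told apart.

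Mal-A1 (FBgn0002570, 1826 exon bases in the reference annotation) was the most abundant maltase. Per kilobase of exon it averaged 339 ± 219 CPM over all libraries (SD, n = 89), followed by Mal-A6 with 113 ± 71.4 and Mal-A5 with 81.2 ± 12.7 CPM per kilobase. Mal-B2, Mal-A7, Mal-A8, Mal-A2 and Mal-A4 lay between 53.9 and 30.2 CPM per kilobase, and Mal-A3 (20.5 ± 6.79) and Mal-B1 (14.6 ± 11.9) were lowest. Mal-A1 made up between 33.7% (Ithaca) and 54.9% (Beijing) of the family's length-scaled reads in mated females, and between 34.0% (Ithaca) and 52.7% (Beijing) in virgins. The family's makeup in reads was not the same in each line. In mated Zimbabwe females Mal-A5 held 26.2% and Mal-A6 1.57%, whereas in mated Beijing females Mal-A5 held 5.48% and Mal-A6 15.1%. The 10 genes together gave 2454 ± 521 CPM in mated Beijing females (n = 15), 1433 ± 304 in Netherlands (n = 15), 1404 ± 339 in Ithaca (n = 14), 1388 ± 262 in Tasmania (n = 15) and 764 ± 310 in Zimbabwe females (n = 15).

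**Figure D1:**
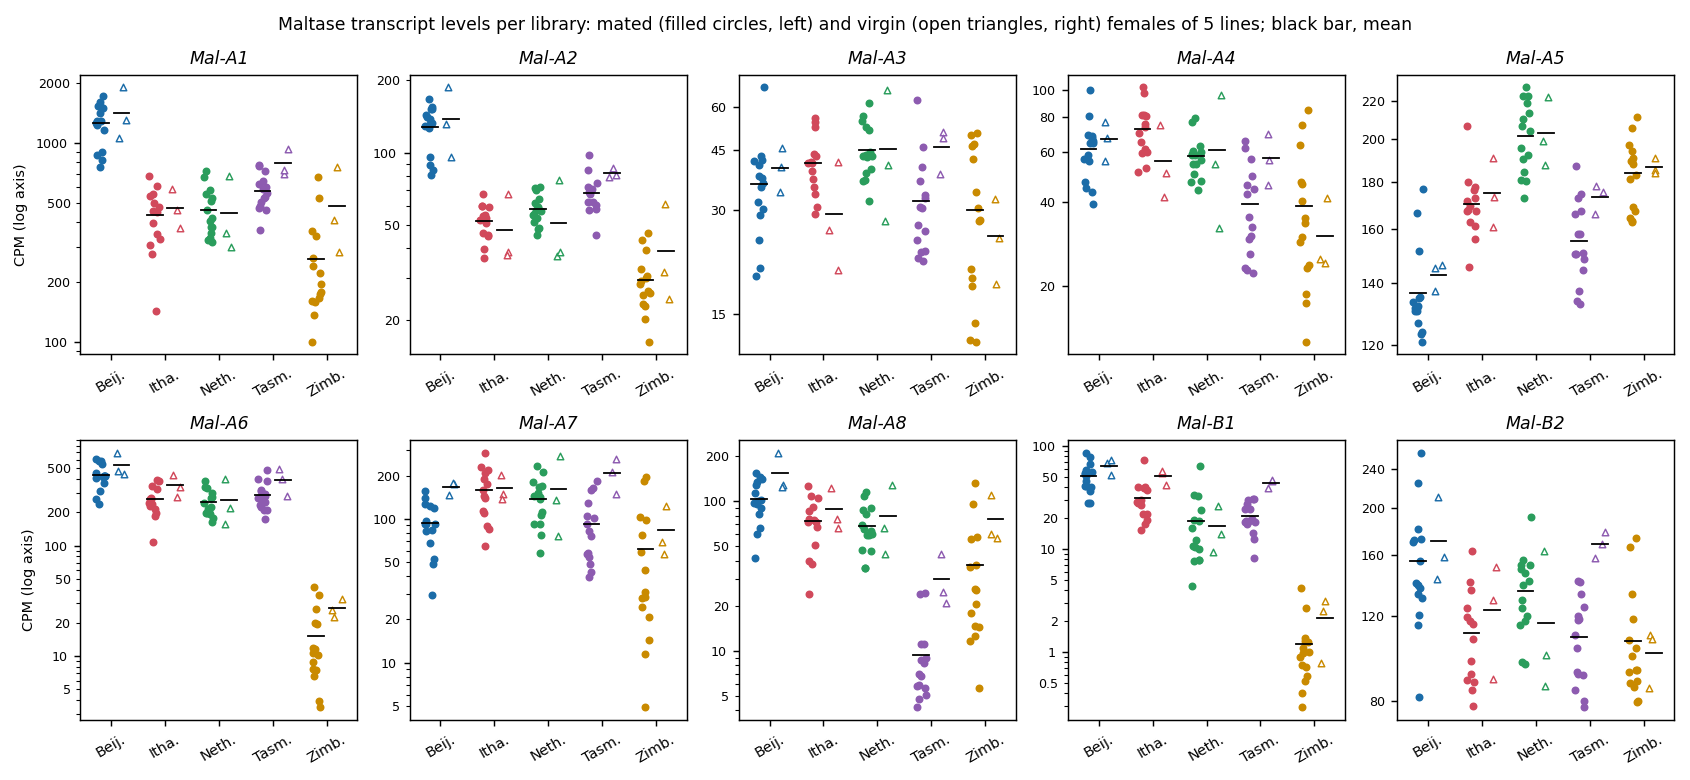
CPM of each maltase gene in every library (log axes, 1 panel per gene, each with its own scale) by female line, with mated libraries as filled circles left of virgin libraries as open triangles and black bars for group means. Mal-A6 and Mal-B1 lie below all other lines in Zimbabwe females, Mal-A8 is lowest in Tasmania females with overlap into Zimbabwe, and Mal-A5 stays between 121 and 228 CPM in all 89 libraries.

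The first comparison asks how maltase levels depended on the line of the female. Among mated females all 10 genes differed between the 5 lines (edgeR quasi-likelihood test, adjusted p 2.70e-24 to 0.00568), beside 70.1% of all genes tested, so that passing this test was common. Without 9 of the 10 libraries that stand apart all 10 maltases still passed, beside 71.0% of all genes. The size of the differences was not alike. The ratio of the highest to the lowest line mean was 42.6 for Mal-B1, 28.7 for Mal-A6 and 11.0 for Mal-A8 but 1.46 for Mal-B2 and 1.48 for Mal-A5. Over 10 pairs of lines and 10 genes, 64 of 100 differences passed. Netherlands minus Zimbabwe females gave 10 of 10 maltases, all higher in Netherlands, beside 29.9% of all genes. Ithaca minus Zimbabwe gave 8, all higher in Ithaca (37.8% of all genes), and Beijing minus Zimbabwe gave 7 higher and 1 lower (36.1%). Beijing females were also set apart from Tasmania (8 of 10, beside 34.2%), Ithaca (7 of 10, beside 43.1%) and Netherlands females (5 of 10, beside 36.8%). Tasmania females differed from Zimbabwe females in 6 of 10 genes (32.1%), and 5 of 10 genes differed for Ithaca minus Tasmania (38.2%) and for Netherlands minus Tasmania (30.5%). Ithaca and Netherlands females were the closest pair, with 2 of 10 genes (38.2%).

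Mal-A1 and Mal-A2, the first pair of the cluster, were highest in Beijing females. Mal-A1 reached 751, 1282 and 1719 CPM (lowest, median and highest of 15 libraries) in mated Beijing females, against 366, 561 and 775 CPM in Tasmania females, the next line. The ranges overlapped in 1 Beijing library that lay below the 2 highest Tasmania libraries. Mal-A1 was higher in Beijing by a log2 difference of 1.15 ± 0.19 against Tasmania (SE; adjusted p = 1.44e-06) and of 2.30 ± 0.20 against Zimbabwe (adjusted p = 1.53e-15). Mated Zimbabwe females had the lowest Mal-A1, with 100.2, 195 and 669 CPM. Netherlands and Ithaca females, at 462 ± 128 and 432 ± 144 CPM, did not differ in Mal-A1 beyond their spread (log2 difference of Ithaca minus Netherlands -0.07, adjusted p = 0.840). Mal-A2 kept the same order of lines, from 128 ± 27.5 CPM in Beijing to 29.4 ± 8.28 CPM in Zimbabwe females. The summed midgut markers were also highest in mated Beijing females, at 361 ± 45.2 CPM, beside 265 to 292 CPM in the other 4 lines. Their part in the Beijing levels was not tested.

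Mal-A6 (FBgn0050360), which lies further along the same cluster, was low in a single line. Mated Zimbabwe females had 3.46, 10.7 and 42.0 CPM of Mal-A6 (lowest, median and highest), from 38 to 733 reads per library, against 165, 225 and 386 CPM in mated Netherlands females. No Zimbabwe library reached the range of any other line. The log2 difference was 4.07 ± 0.24 for Netherlands minus Zimbabwe (adjusted p = 1.39e-22) and 4.88 ± 0.25 for Beijing minus Zimbabwe (adjusted p = 9.22e-26). Beijing was the highest line at 433 ± 113 CPM, while Tasmania (289 ± 82.9), Ithaca (262 ± 79.5) and Netherlands females (249 ± 67.0) could not be separated from one another. For its neighbours, Netherlands minus Zimbabwe gave log2 differences of 0.13 ± 0.05 (Mal-A5) and 1.20 ± 0.32 (Mal-A7). The midgut markers summed to 273 ± 14.8 CPM in mated Zimbabwe and 265 CPM in mated Netherlands females.

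Mal-B1 (FBgn0032381) showed a like split on another chromosome arm. It had 0.295, 0.974 and 4.15 CPM in mated Zimbabwe females (lowest, median and highest), from 3 to 49 reads per library, against 27.8, 51.3 and 86.1 CPM in mated Beijing females. The groups did not overlap, and the log2 difference was 5.37 ± 0.30 for Beijing minus Zimbabwe (adjusted p = 4.37e-24). The other lines lay between, with 31.4 ± 14.7 CPM in Ithaca, 20.8 ± 6.72 in Tasmania and 18.7 ± 15.5 in Netherlands females. Tasmania and Netherlands females did not differ beyond their spread (adjusted p = 0.469), and 9 of 10 pairs of lines passed for Mal-B1. The highest Netherlands library, at 64.4 CPM, was Netherlands x Ithaca replicate 2, the one with 51.4% Ithaca-like RNA. Mal-B2, the direct neighbour of Mal-B1, was more even, from 155 ± 44.2 CPM in Beijing to 106 ± 29.2 CPM in Zimbabwe females.

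Mal-A8 (FBgn0033297), at the end of the cluster, was lowest in Tasmania and not in Zimbabwe females. It had 4.20, 7.0 and 24.2 CPM in mated Tasmania females (lowest, median and highest), against 5.64, 25.3 and 132.5 CPM in mated Zimbabwe females. These 2 ranges overlapped widely, yet the means differed by a log2 value of -2.01 ± 0.31 (Tasmania minus Zimbabwe, adjusted p = 1.97e-07). Mated Beijing, Ithaca and Netherlands females had 104 ± 33.0, 73.9 ± 28.9 and 68.3 ± 24.1 CPM and were not separable from each other (adjusted p 0.0927 to 0.797). Each of them exceeded Tasmania females by 2.92 to 3.52 on the log2 scale. Mal-A7, the neighbour of Mal-A8, gave 92.6 ± 46.9 CPM in mated Tasmania females and 93.7 ± 35.4 CPM in Beijing females.

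Mal-A5 was the most even member. It ranged from 137 ± 16.0 CPM in mated Beijing to 202 ± 17.6 CPM in mated Netherlands females, and its coefficient of variation within a line was 8.2% to 11.7%, against 20.3% to 60.4% for Mal-A1. This low spread let 8 of 10 line pairs pass although the differences were small. Mal-A3 and Mal-A4 varied between 30.2 and 45.1 CPM and between 38.7 and 72.4 CPM across lines. Mal-A3 (adjusted p = 0.00568) lost its call without the libraries numbered 1 or 2 (adjusted p 0.058 and 0.052), and Mal-A7 without those numbered 2 (0.099).

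**Figure D2:**
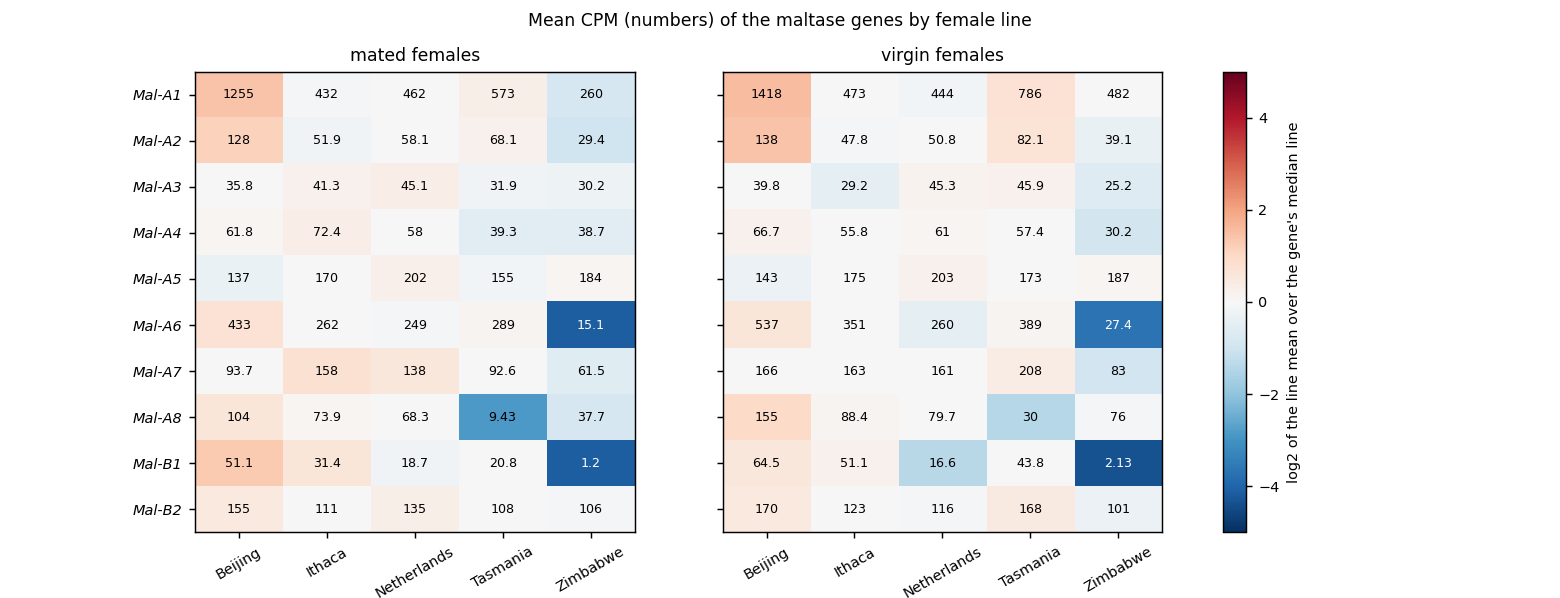
Mean CPM of each maltase gene (numbers) in mated females on the left and virgin females on the right by female line, with colour for the log2 ratio to the gene's median line. In mated flies the strongest departures are the low Mal-A6 and Mal-B1 of Zimbabwe and the low Mal-A8 of Tasmania females, and the same cells are below the median line in virgins.

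Virgins, with 3 libraries per line, shared the low Mal-A6 and Mal-B1 of Zimbabwe females. Of the 10 genes 5 differed between lines, namely Mal-A1, Mal-A2, Mal-A5, Mal-A6 and Mal-B1 (adjusted p 2.98e-08 to 0.00798), beside 27.5% of all genes. The Mal-A5 call was lost without the libraries numbered 1 (adjusted p = 0.226) or 3 (adjusted p = 0.0952). Mal-A6 had 26.3, 33.2 and 22.6 CPM in the Zimbabwe virgins, and 403, 222 and 156 CPM in the Netherlands virgins, the next line. Mal-B1 had 3.13, 2.49 and 0.784 CPM in Zimbabwe virgins and 9.34 CPM or more in every other virgin library. The order of the 5 lines was identical in mated and virgin females for Mal-A2, Mal-A5, Mal-A6, Mal-A8 and Mal-B1, and not for the other 5 members. Zimbabwe was the lowest line for Mal-A1 in mated females but Netherlands was in virgins, and Mal-A7 was highest in Ithaca among mated and in Tasmania among virgin females. Mal-A8 did not pass among virgins (adjusted p = 0.0656) although its lowest line was again Tasmania, with 24.9, 20.7 and 44.5 CPM, the last from the library with 21.8% Zimbabwe-like RNA. It passed with the gene length covariate (adjusted p = 0.0406), without the libraries numbered 3 (0.0140) and without Netherlands virgin replicate 1 (0.0403), and Mal-B2 (adjusted p = 0.0845) passed without that last library (0.0224).

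The second comparison asks whether maltase transcripts changed with mating. Averaged over the 5 lines, Mal-A8 and Mal-B1 fell and no member rose, so that 2 of 10 passed, both lower, beside 5.63% of all genes called and 1.47% called lower. Mal-A8 averaged 58.4 ± 42.2 CPM in mated (n = 74) and 85.8 ± 51.3 CPM in virgin females (n = 15), and Mal-B1 24.5 ± 20.6 CPM in mated and 35.6 ± 24.6 CPM in virgin females. Both spreads include the differences between lines, so the changes were fitted within lines and then averaged. They were -0.78 ± 0.21 on the log2 scale for Mal-A8 (1.71-fold lower, adjusted p = 0.0145) and -0.62 ± 0.19 for Mal-B1 (1.54-fold lower, adjusted p = 0.0310). The fitted change of Mal-A8 was below 0 in all 5 lines and that of Mal-B1 in all but Netherlands females. The log2 changes of Mal-A7 (-0.56 ± 0.23, adjusted p = 0.181), Mal-A6 (-0.44 ± 0.16, adjusted p = 0.0983) and Mal-A1 (-0.33 ± 0.14, adjusted p = 0.211) did not pass. Mal-A2, Mal-A3, Mal-A4, Mal-A5 and Mal-B2 had log2 changes between -0.13 and 0.00. The median log2 change of the 10 genes was -0.23, against 0.01 over all genes tested.

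**Figure D3:**
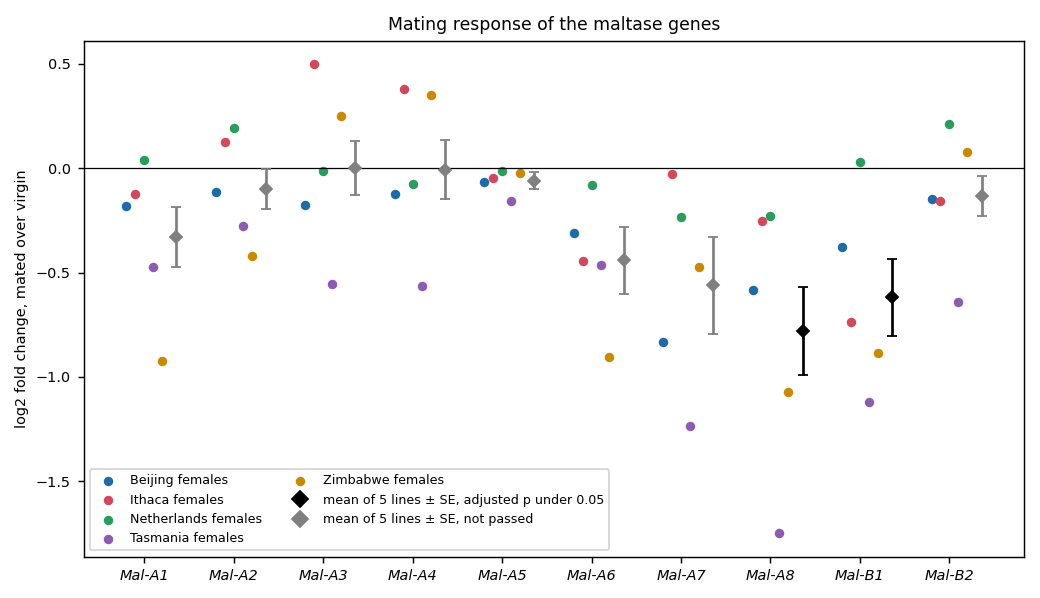
Log2 fold change of mated over virgin females for each maltase gene, as coloured points for the 5 female lines and as diamonds with SE for their mean, black where the adjusted p is under 0.05. Mal-A8 and Mal-B1 carry the black diamonds, at -0.78 and -0.62, and the Tasmania point is the lowest of the 5 for Mal-A3, Mal-A4, Mal-A5, Mal-A7, Mal-A8, Mal-B1 and Mal-B2.

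The Mal-A8 and Mal-B1 calls rested on few virgin libraries. Without Tasmania virgin replicate 3 the adjusted p was 0.0513 for Mal-A8 and 0.0505 for Mal-B1. For Mal-B1 the call was also lost without any single one of 6 other virgin libraries, Beijing replicate 3, Ithaca replicates 1 and 3, Netherlands replicate 1 and Zimbabwe replicates 1 and 2, with adjusted p up to 0.152. Leaving out all libraries numbered 1 gave 0 calls among the 10 genes, beside 3.31% of all genes. Leaving out those numbered 2 gave 1 call (Mal-B1), beside 2.37%, and leaving out those numbered 3 gave 5 (Mal-A1, Mal-A6, Mal-A7, Mal-A8 and Mal-B1), beside 1.97%. Without 9 of the 10 libraries that stand apart, Mal-A8 (-0.75, adjusted p = 0.0368) and Mal-B1 (-0.66, adjusted p = 0.0110) were still called. The midgut markers summed to 293 ± 47.0 CPM in mated (range 201 to 418) and 294 ± 36.4 CPM in virgin females (range 219 to 359), and 0 of 6 changed (1 at an unadjusted p under 0.05). The 5 fat body markers, of which Fbp1 was at 0 in 15 libraries, summed to 2504 ± 673 CPM in mated (range 1284 to 4660) and 2038 ± 523 CPM in virgin females (range 1295 to 2903), and 0 of 5 passed (1 at an unadjusted p under 0.05). Of all genes tested 5.63% passed. The part of these markers in the maltase changes was not tested. None of 7 female germline, 18 testis and 8 seminal fluid markers passed by edgeR (2, 0 and 0 at an unadjusted p under 0.05), although the median log2 change was 1.56 for the testis and 1.30 for the seminal fluid list. Without the 6 libraries with testis transcripts, Mal-A8 (-0.82, adjusted p = 0.00965) and Mal-B1 (-0.59, adjusted p = 0.0490) were still called.

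Within single lines, Tasmania females gave the only call. Mal-A8 had 4.20, 7.0 and 24.2 CPM in mated Tasmania females (lowest, median and highest of 15) and 24.9, 20.7 and 44.5 CPM in their virgins. In 13 of 15 mated libraries Mal-A8 lay below every virgin, and the change was -1.75 ± 0.46 (adjusted p = 0.0421), so that 1 of 10 maltases passed beside 0.822% of all genes and 0.498% called lower. The call was lost without any 1 of the 3 Tasmania virgins (adjusted p 0.111, 0.0632 and 0.579 without replicates 1, 2 and 3) and without 9 of the libraries that stand apart (-1.35, adjusted p = 0.491). Mal-B1 had 8.21, 18.8 and 30.3 CPM in mated Tasmania females and 45.6, 39.4 and 46.4 CPM in their virgins, and Mal-B2 had 77.9, 109 and 142 CPM in mated and 169, 178 and 158 CPM in virgin libraries. For both genes all 15 mated libraries lay below all 3 virgins, but neither passed (Mal-B1 -1.12 ± 0.36, adjusted p = 0.150, and Mal-B2 -0.64 ± 0.20, adjusted p = 0.141). The share of all genes with such a split, or with 13 of 15 mated libraries below every virgin, was not counted. In Beijing, Ithaca, Netherlands and Zimbabwe females 0 of 10 maltases passed by edgeR (0, 0, 0 and 3 at an unadjusted p under 0.05), beside 0.0249%, 0.174%, 0.125% and 0.083% of all genes (0.0249%, 0.0747%, 0.0332% and 0.0581% called lower). The test of whether the mating change differed between lines called 0 of 10 maltases as well (0 at an unadjusted p under 0.05), beside 0.0664% of all genes, so the Tasmania values are not shown to differ from those of other lines. In Zimbabwe females Mal-A1 had the lowest fitted change of the 5 lines, -0.92 ± 0.31 (adjusted p = 0.358).

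In Zimbabwe females the mated libraries numbered 3 stood above the others for several members. Mal-A7 had 76.9, 103 and 197 CPM (lowest, median and highest) in the 5 mated libraries numbered 3, against 4.91, 26.4 and 58.4 CPM in the 10 numbered 1 or 2, and 69.1, 123 and 56.5 CPM in the virgins. The number-3 libraries did not overlap the rest of the mated libraries for Mal-A6, Mal-A7 and Mal-A8. For Mal-A6 they ran from 19.7 to 42.0 CPM, against 3.46 to 11.8 CPM in the other mated libraries, and for Mal-A8 from 37.6 to 132.5 CPM, against 5.64 to 36.6 CPM. The libraries numbered 3 were the highest of their cross in 5 of 5 Zimbabwe crosses for these 3 genes. In Beijing females this held for Mal-A6 in 5 of 5 crosses and for Mal-A1, Mal-A7 and Mal-A8 in 4 of 5, and in Ithaca females for Mal-A1, Mal-A7 and Mal-B2 in 4 of 4 crosses with 3 libraries. In Netherlands females it held for no member in more than 2 of 5 crosses, and in Tasmania females for none in more than 3 of 5. The share of all genes with such gaps or ranks was not counted. No label ties a number to a day or batch. Among the Zimbabwe virgins replicate 3 was the lowest for Mal-A6, Mal-A7 and Mal-A8. Without the libraries numbered 3, 4 of 10 maltases (Mal-A1, Mal-A6, Mal-A7 and Mal-A8, all lower in mated females) were called within Zimbabwe females, beside 19 genes or 0.155% of all tested, against 0 with them. For Mal-A6, Mal-A7 and Mal-A8 this removes the high mated libraries and the lowest virgin, so the choice of libraries favours a fall.

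The third comparison asks whether the line of the mate changed maltase levels. Averaged over female lines, 0 of 10 maltases differed between male lines by edgeR (0 at an unadjusted p under 0.05), beside 0.0083% of all genes. Across the 5 male lines, the geometric mean of Mal-B1 over female lines ran from 10.5 CPM after Beijing males to 16.8 CPM after Zimbabwe males, a 1.60-fold range (adjusted p = 0.434). The range was 1.06-fold for Mal-A5 and 1.39-fold for Mal-A7 and Mal-A8. Within Beijing, Ithaca, Netherlands, Tasmania and Zimbabwe females 0 of 10 maltases passed (0, 0, 1, 0 and 0 at an unadjusted p under 0.05), beside 0.0415%, 7.99%, 11.2%, 0.208% and 0% of all genes. The Ithaca and Netherlands shares were 0.213% and 0.0647% without 9 of the libraries that stand apart, again with 0 maltases called.

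The widest spread between mates was that of Mal-B1 in Netherlands females. After Ithaca males the Netherlands libraries had 7.71, 64.4 and 10.1 CPM, where 64.4 CPM is the library with 51.4% Ithaca-like RNA, against 12.1, 10.5 and 4.35 CPM after Beijing males. The cross means were 27.4 and 8.99 CPM, a 3.05-fold difference that rests on that library, and the adjusted p over the 5 mates was 0.0985. Without it and Netherlands x Beijing replicate 2, the means were 8.92 CPM after Ithaca males and 8.23 CPM after Beijing males (n = 2 libraries each), a 1.08-fold difference. The highest mean was then the 25.3 CPM after Zimbabwe males, 3.07-fold that after Beijing males, so the spread over the 5 mates remained. In the fit without 9 libraries the adjusted p over the 5 mates was 0.806. In Beijing females Mal-B1 was highest after Ithaca males, with 78.3, 86.1 and 51.3 CPM, and lowest after males of their own line, with 41.2, 27.8 and 36.5 CPM, which did not overlap. In Tasmania females Mal-A7 had 57.8, 158 and 164 CPM after Zimbabwe males and 56.6, 39.2 and 54.4 CPM after Beijing males. These libraries did not overlap, but the lowest after Zimbabwe males lay just above the highest after Beijing males. For Mal-B1 and Mal-A7 alike, the 2 mates set side by side are the highest and lowest of 5. They were picked by their values, so a gap between them is favoured by the choice. Neither gene passed over all 5 mates (adjusted p = 0.999 for Mal-B1 and 1.00 for Mal-A7). The female-by-male interaction called 0 of 10 maltases (0 at an unadjusted p under 0.05), beside 3.53% of all genes (0.157% without those 9 libraries). Mates of the same line against mates of another line also gave 0 of 10 (0 at an unadjusted p under 0.05, and 0 by DESeq2), beside 0% of all genes, with log2 differences between -0.04 and 0.14.

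**Figure D4:**
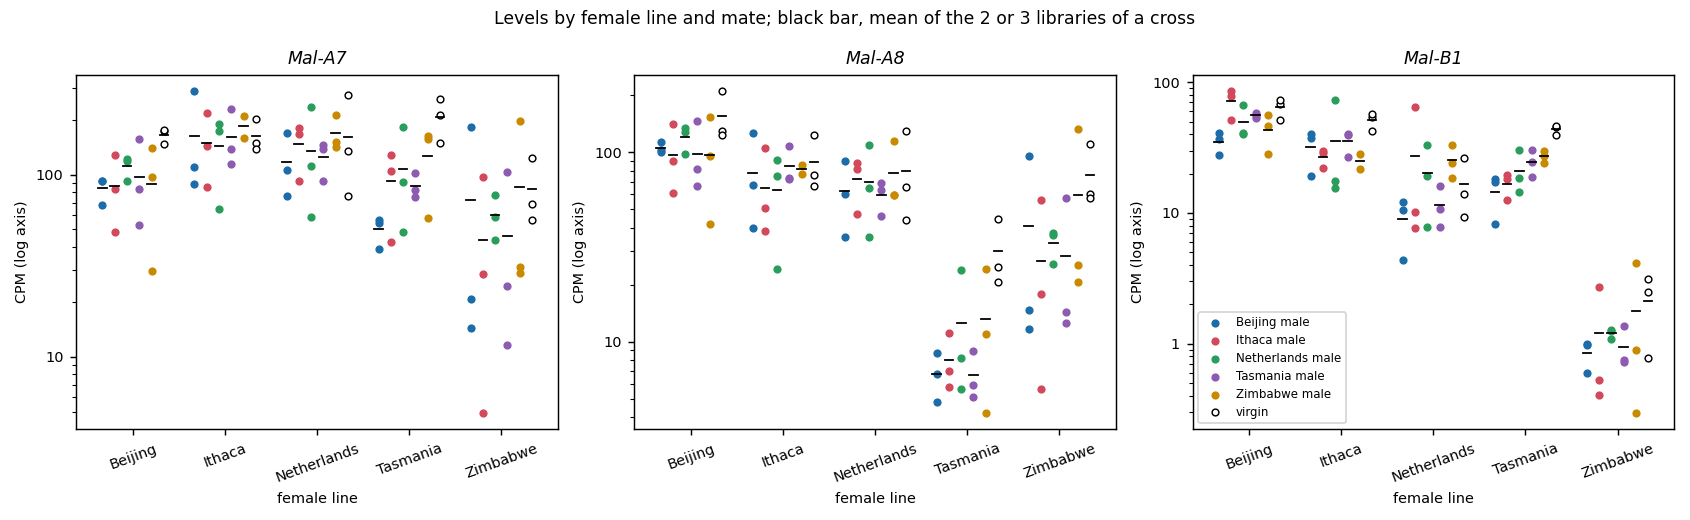
CPM of Mal-A7, Mal-A8 and Mal-B1 (log axes) in each library by female line, coloured by the line of the mate, with virgins as open circles at the right of each line and black bars for the mean of each group. The colours are mixed within female lines, while Mal-A8 is lowest in Tasmania females and Mal-B1 in Zimbabwe females whatever the mate.

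Most maltase genes varied together between libraries of one group. The measure was Pearson's r of log2 CPM over 89 libraries, each taken as its deviation from the mean of its cross or virgin group, so that line, mating and mate do not enter. Of 45 pairs of members 39 had a positive r and 36 passed (permutation within groups, two-sided, adjusted over the 45 pairs), with a median r of 0.54. The 36 include Mal-A5 with Mal-A6, whose r was negative. The share of all gene pairs that would pass was not counted, so the 36 are not set against a background. The closest pairs lay in the cluster: Mal-A7 and Mal-A8 had r = 0.92 (rho = 0.89), Mal-A6 and Mal-A7 r = 0.91 (rho = 0.90), and Mal-A3 and Mal-A4 r = 0.88 (rho = 0.85). Each had a permutation p of 1e-05, the smallest that 100000 permutations can give (adjusted p = 2e-05). Libraries were permuted within groups without regard to replicate number. The p-values of these correlations therefore do not set aside what libraries of the same number share. Without the 2 libraries farthest from the median of the first gene, these r were 0.90, 0.89 and 0.85, and without the 9 libraries they were 0.94, 0.91 and 0.88. Within the libraries numbered 1, 2 or 3 alone, Mal-A7 and Mal-A8 had r = 0.89, 0.90 and 0.91 (n = 30, 29 and 30). Values by number are not given here for the other 2 pairs.

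Mal-A5 did not follow its neighbours. Its r with the other 9 members lay between -0.27 and 0.16, and the only one to pass was with Mal-A6 (r = -0.27, rho = -0.28, p = 0.0274, adjusted p = 0.0342), which was -0.30 without the 2 farthest libraries but between -0.14 and -0.01 within single replicate numbers. Mal-B1 and Mal-B2 had r = 0.54 with each other (rho = 0.54, p = 4e-05, adjusted p = 8e-05) and 0.60 without the 2 farthest libraries. With Mal-A7 on the other chromosome arm, Mal-B1 had r = 0.57 (rho = 0.52, p = 2e-05, adjusted p = 5e-05) and 0.58 without the 2 farthest libraries.

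**Figure D5:**
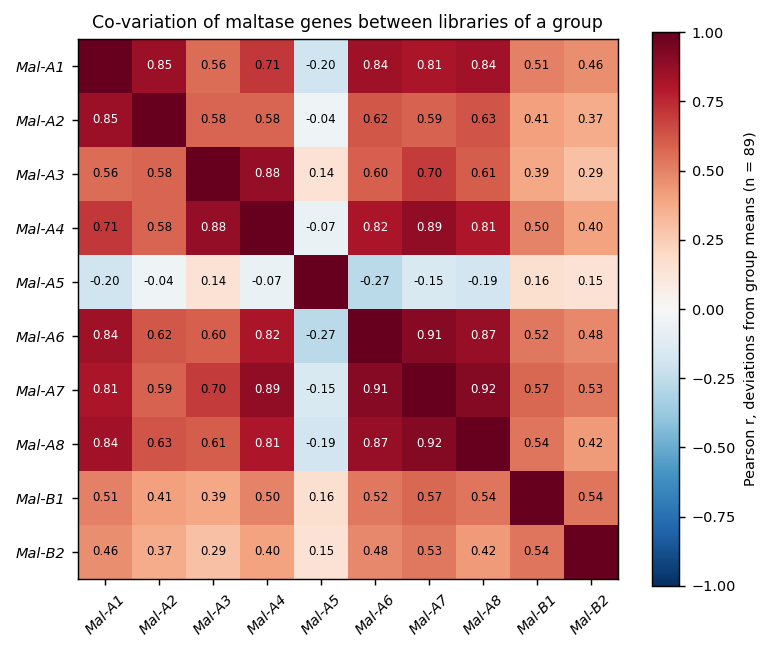
Pearson's r between maltase genes over 89 libraries, as deviations of log2 CPM from the mean of each cross or virgin group (colour and numbers). Mal-A1 to Mal-A4 and Mal-A6 to Mal-A8 form a block of r from 0.56 to 0.92, Mal-B1 and Mal-B2 join it with r from 0.29 to 0.57, and the row of Mal-A5 is near 0.

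The search covered 9144 other genes whose mean log2 CPM was 1 or more. Among them tobi followed the maltases most often by this measure. It encodes another alpha-glucosidase, known in flies as a target of brain insulin. Its r was 0.91 with Mal-A6, 0.90 with Mal-A7, 0.89 with Mal-A8, 0.86 with Mal-A1 and 0.81 with Mal-A4, while the median r of a maltase over those genes lay between -0.03 and 0.04. CG6484 had r = 0.89 with Mal-A1, 0.83 with Mal-A2 and 0.81 with Mal-A6. The other gene nearest to Mal-A2 was CG10086 (0.80), to Mal-A4 CG12766 (0.79), to Mal-A7 CG32444 (0.85) and to Mal-A8 the cytochrome P450 gene Cyp28d1 (0.82). The nearest genes of Mal-A3 were CG7916 (0.79) and smp-30 (0.76). Mal-A5 was nearest to GstE13, a glutathione S-transferase gene (0.79), and to Eno, which encodes the glycolytic enzyme enolase (0.79). Mal-B1 had lower values, 0.65 with CG14245 and 0.64 with CG3699, and Mal-B2 had 0.75 with sPLA2, a secreted phospholipase gene, and 0.74 with Hn, the phenylalanine hydroxylase gene. The line order of tobi was like that of Mal-A1 at its ends, with 944 ± 297 CPM in mated Beijing and 84.4 ± 88.7 CPM in mated Zimbabwe females. Its mating change of -0.42 ± 0.25 did not pass (adjusted p = 0.468).

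The rest of the sugar pathway was read from lists that held no maltase. Of 17 amylases, other glycosidases and glycogen enzymes, 1 rose and 3 fell with mating, beside 5.63% of all genes called and 1.47% called lower. The predicted mannosidase CG9468 rose by 0.81 ± 0.19 on the log2 scale (adjusted p = 0.00270). GlyP, which encodes glycogen phosphorylase, fell by 0.29 ± 0.06 (adjusted p = 0.00192). CG33138, the glycogen branching enzyme gene, fell by 0.30 ± 0.06 (adjusted p = 0.00108). CG9485, the glycogen debranching enzyme gene, named after its value was seen, fell by 0.49 ± 0.16 (adjusted p = 0.0489). Amy-p and Amy-d, the amylase genes upstream of the maltases, are near-identical copies whose reads may be split, and neither passed (log2 changes 0.20 ± 0.13 and 0.44 ± 0.19).

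Of 13 sugar transporters, 3 rose and 1 fell with mating, beside 5.63% of all genes called and 1.47% called lower. Averaged over the 5 lines, the trehalose transporter gene Tret1-1 fell by 0.47 ± 0.06 (adjusted p = 6.34e-07). In Tasmania females alone it was at 320 ± 47.2 CPM in mated (n = 15) against 445 ± 18.9 CPM in virgin females (n = 3). Those virgins include replicate 3, with 21.8% Zimbabwe-like RNA, and the levels in the other lines are not given here. CG4607 (0.31 ± 0.07), CG10960 (0.16 ± 0.04) and sut2 (0.31 ± 0.09, named after its value was seen) rose on the log2 scale. Of 14 sugar sensing and response genes 0 passed by edgeR (3 at an unadjusted p under 0.05), and of 28 digestive proteases and lipases only Ser8 did (0.64 ± 0.19, adjusted p = 0.0255). The share of all genes called beside both lists is again 5.63%. Among mated females of different lines, where 70.1% of all genes passed, 16 of 17 glycosidases, 10 of 13 transporters, 11 of 14 sensing genes and 28 of 28 proteases and lipases passed, and 5 of 6 midgut markers did. Amy-p did not follow the line order of the maltases, with 94.7 ± 34.5 CPM in mated Beijing females, where Mal-A1 was highest, and 1536 ± 237 CPM in mated Ithaca females. This is the count of Amy-p alone. Amy-d by line is not given here, and a different split of reads between the copies in each line was not tested.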

How the data were processed

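RNA of whole females was sequenced as single reads of 100 bases from TruSeq RNA v2 libraries, per the labels' protocols, a kit that does not mark strand. FastQC, Trimmomatic, TopHat2, HTSeq and the build dm3 were used, per the submitters' processing notes. Versions, options and annotation release are not given in the sources used here. The authors deposited whole-number read counts for each gene, without normalization. Reads of all lines went to 1 build, and the effect of line sequence on counts was not tested. Mal-B1 and Mal-B2 lie within Pde1c on the other strand, Cyp4e1 overlaps one end of Mal-A1 and mtt one end of Mal-A8, so reads shared there cannot be told apart. Of 14522 rows, 8 with a number for a symbol (0.122% of counts) were left out. Names, neighbours and exon lengths came from BDGP6, a build other than that of the files, where 14321 symbols (98.7%) matched. Replicate 2 of Ithaca x Zimbabwe was not analysed here.

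Counts were tested in R 4.3.3 with edgeR 4.0.16: filterByExpr over 30 groups (12045 genes), TMM scaling (factors 0.740 to 1.10), and a robust quasi-likelihood fit with 1 mean per group over 89 libraries, followed by contrasts of group means. A gene was called at a Benjamini-Hochberg adjusted p below 0.05 over all genes tested. SEs are |log2 change| / sqrt(F). CPM uses TMM library sizes, and correlations used log2 CPM with a prior count of 2. Alternatives were DESeq2 1.42.0 (its size factors, or its Wald test), no filter, the replicate number as a block, a covariate for how steeply expression changes with gene length in a library, fits on part of the libraries, and leaving out replicates, single virgins or libraries that stand apart. The fitting code was tested on simulated data. No 2 replicates were the same library (chi-square per degree of freedom at least 12.2). The p-values measure the spread between pools from separate bottles. Where groups are said not to overlap, the share of all genes with such a gap was not counted.

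The members, the lists and the libraries left out were chosen with earlier results of these data known. All maltases were named in each comparison, of each other list up to 3 members that passed, by smallest p, and for each maltase the 2 other genes with the highest r.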

Additional observations from a re-analysis of the deposited data

How the results depend on the processing

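Of 517 values recomputed under settings other than leaving out replicates, 498 counted as unchanged and 19 did not. Log2 changes were judged by direction and side of the threshold, and adjusted p by side of the threshold. Counts of calls were judged by a limit on their fold change, and levels and the median r by a limit on their shift in SD. The totals therefore mix strict and looser rules. Leaving out replicates or single virgins changed 65 of 651. With the replicate block 4 of 10 maltases were called with mating (Mal-A6, Mal-A7, Mal-A8 and Mal-B1), against 2 without it, and Mal-A8 passed for line among virgins (adjusted p 0.0200, against 0.0656). Over the 7 settings other than leaving out replicates, 611 to 1521 of all genes were called with mating. The count of all genes for the block alone is not given here. The reported fit did not take the replicate numbers as pairs. The mean correlation of deviations was 0.134 between libraries of the same number (-0.706 to 0.843) and -0.0652 between different numbers. The deviations of a group sum to 0, so the second mean largely follows from the first. By the first mean, libraries of the same number were more alike on average, and the reported fit leaves this in its spread. Within Tasmania females 0 maltases were called in a fit on that line alone, 0 without the filter, 0 without the 9 libraries and 2 with each library's slope on gene length as a covariate. The shares of all genes in these Tasmania fits are not given here. The gene length covariate gave 1521 genes called with mating (678 as reported) and 5780 for line among virgins (3308). The near-zero change of Mal-A3 turned to -0.0086 with the covariate, -0.00025 without the filter, -0.013 with the block, -0.0017 without the 6 libraries with testis transcripts and -0.040 without the 9. The cause was not tested. Leaving out replicates gave 0 to 5 maltases called with mating, 0 to 1 within Tasmania, 0 to 4 within Zimbabwe, 241 to 854 genes called with mating, 1632 to 3985 for line among virgins, and log2 changes of -0.094 to 0.14 for Mal-A3 and -0.22 to 0.20 for Mal-A4. The 3 virgin libraries per line limit every mating result.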
